A study of Sus scrofa with 6 samples.

Results

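The genes described here are 10 of the protein genes that the pig carries in its mitochondrial DNA: ND1, ND2, ND3, ND4 and ND5 of respiratory complex I, CYTB of complex III, COX1, COX2 and COX3 of complex IV, and ATP6 of complex V. They were found by symbol through their Ensembl pig gene identifiers, and all 10 had a row among the 12671 loci of the deposited TPM table. TPM gives the share of a transcript in its library after dividing its reads by its length. The libraries were made from longissimus dorsi, the long back muscle, of female QingYu pigs (written Qinyu Pig in the labels), with 3 biological replicates at the growth inflection point (IP, 178 days) and 3 at the growth plateau (PP, 395 days). The ages come from the growth protocol and the methods, whereas the age field of the labels reads 178 days for all 6 libraries. No treatment is named for either phase, and RNA was captured by its poly(A) tail, so the values describe polyadenylated RNA of whole muscle. In such bulk tissue, fewer mitochondria and less RNA per mitochondrion cannot be told apart.

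The mitochondrial genome supplies only the core membrane subunits of the respiratory chain, while all other subunits come from nuclear genes. In mammals its coding strands are copied into long RNAs, which are cut at the tRNAs that lie between the genes, and most of the released messages receive a short poly(A) tail. Muscle of the back is built mostly from fibres, whose demand for ATP is met by this chain together with glycolysis. On the RefSeq mitochondrial sequence of Sscrofa11.1, a circle of 16613 bases from a Landrace pig, 13 protein genes, 22 tRNA genes and 2 rRNA genes are annotated. The 10 genes all lie on the plus strand, in the order ND1, ND2, COX1, COX2, ATP6, COX3, ND3, ND4, ND5 and CYTB, from position 3922 to 16481.

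The ends of the coding regions are shown because, in some of these genes, the tail on which the libraries were selected completes the stop codon. In 6 of the 10 genes (ND1, ND2, COX2, COX3, ND3 and ND4) only the first base of the stop codon is encoded, and the annotation completes it with the A residues of the tail. The other 4 encode a whole stop codon, and where the tail of their messages starts was not determined. The last 30 coding bases of 5 genes follow, 5′ to 3′ on the plus strand, with the encoded part of the stop codon in capitals. COX1, COX2 and ND3 are those whose phases did not overlap, and ND4 and ND5 those with the widest spread between libraries.
COX1 (chrMT:8026-8055): gaagaaccaacatatatcaacctaaaaTAA
COX2 (chrMT:8861-8890): aaaaatggtcaacatcaatattaacaggtT
ND3 (chrMT:10969-10998): gaacccaaaaaggcctagaatgagcagaaT
ND4 (chrMT:12707-12736): accctaaaataatcctaggacccctttacT
ND5 (chrMT:14726-14755): agcataacactatttaattaccacgagTAA

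Several of the genes share bases with a neighbour, which bears on how reads are assigned to them. ATP8 and ATP6 overlap by 43 bases, ATP6 and COX3 by 1 base and ND4L and ND4 by 7 bases, all on the same strand, while ND5 overlaps ND6 of the opposite strand by 17 bases. Whether the counting used strand is not given in the sources used here, so reads of ND5 and ND6 in their overlap cannot be told apart. The first and last named pairs are shown with 12 flanking bases on each side and the shared bases in capitals, on the plus strand.
ATP8 and ATP6 (chrMT:9108-9174): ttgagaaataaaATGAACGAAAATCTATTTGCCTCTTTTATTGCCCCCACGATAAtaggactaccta
ND5 and ND6 (chrMT:14727-14767): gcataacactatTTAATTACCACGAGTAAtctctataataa

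Nuclear copies of mitochondrial DNA could also share reads with these genes. Searched against the nuclear part of Sscrofa11.1 with blastn, stretches of at least 100 bases and at least 95% identity covered 30.4% of ND1, 34.5% of ND2, 43.7% of COX1 and 62.8% of COX2. No such stretch was found for ATP6, COX3, ND3, ND4, ND5 or CYTB. How reads with several positions were counted is not given in the sources used here, so the values of ND1, ND2, COX1 and COX2 are treated as uncertain.

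Complex IV genes were by far the most abundant of the 10. COX1 encodes the catalytic subunit of cytochrome c oxidase, which reduces oxygen, and ranked 24th of all loci by mean TPM. It measured 6256, 7210.4 and 3654 TPM in IP replicates 1, 2 and 3, against 3378, 3519 and 3518 TPM in PP replicates 1, 2 and 3. All IP values were above all PP values, but IP replicate 3 exceeded the highest PP replicate only 1.04-fold. The means were 5707 ± 1841 TPM for IP and 3472 ± 80.9 TPM for PP (SD, n = 3 each), so that nearly all of the spread was on the IP side. In the fit over all loci with limma, the log2 fold change of COX1, IP minus PP on the log2(TPM + 1) scale, was 0.66 (standard error 0.26, 95% interval 0.05 to 1.27, adjusted p = 0.686).

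COX2, the subunit that takes electrons from cytochrome c, measured 4509.9, 4954 and 2196 TPM in the IP replicates, against 1734, 2054 and 1976 TPM in the PP replicates. These groups did not overlap either, and again IP replicate 3 lay close to PP, 1.07-fold above its highest value. The log2 fold change of COX2 was 0.93 (standard error 0.31, adjusted p = 0.566 from limma). COX3, the third core subunit, measured 3241, 3528 and 1012 TPM at the IP, against 822, 1395 and 1118 TPM at the PP. Its IP replicate 3 lay below 2 of the 3 PP replicates, so the phases overlapped. For COX3 the log2 fold change was 1.06 (standard error 0.47, adjusted p = 0.743 from limma).

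Of the complex I genes, ND3 stood apart from the others. ND3, a small membrane subunit next to the quinone-binding region, measured 230.1, 372 and 204 TPM in the IP replicates, against 147, 114 and 137 TPM in the PP replicates. Its phases did not overlap, and the lowest IP value was 1.38-fold above the highest PP value, the widest gap among the 10 genes. The means were 269 ± 90.6 TPM for IP and 133 ± 16.9 TPM for PP (SD, n = 3 each), with a log2 fold change of 0.97 (standard error 0.27, 95% interval 0.34 to 1.59). Its unadjusted p of 0.00748 was the lowest of the 10, and its adjusted p over all loci was 0.425 (limma). ND3 was also the one gene whose lowest value was in PP replicate 2, where 9 of the 10 had their lowest value in PP replicate 1.

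ND1, ND2, ND4 and ND5 shared another pattern, with 2 high IP replicates and an IP replicate 3 within the range of the PP values. ND4, one of the proton-pumping subunits, measured 450.4, 474 and 31.6 TPM in the IP replicates, against 30.8, 184 and 93.8 TPM in the PP replicates. Its IP replicate 3 was thus 1.03 times PP replicate 1 and 0.171 times PP replicate 2. ND5, another proton-pumping subunit, measured 269, 359 and 34.0 TPM at the IP, against 23.3, 96.4 and 59.7 TPM at the PP. The highest library of ND4 and of ND5 was 15.4 times the lowest, the widest ranges among the 10 genes. The log2 fold changes were 1.21 for ND4 (standard error 1.07, adjusted p = 0.805) and 1.52 for ND5 (standard error 0.89, adjusted p = 0.798, both from limma). The fold change of ND5 was the largest of the 10, and its 95% interval from -0.53 to 3.58 includes 0.

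ND1, which lies at the junction with the peripheral arm of complex I, measured 329.9, 325 and 53.1 TPM in the IP replicates, against 48.6, 109 and 81.0 TPM in the PP replicates. ND2, a further proton-pumping subunit, measured 310.2, 459 and 72.0 TPM at the IP, against 53.7, 147 and 101 TPM at the PP. For both genes IP replicate 3 lay between the lowest and the middle PP value. Their log2 fold changes were 1.24 for ND1 (standard error 0.69, adjusted p = 0.789) and 1.22 for ND2 (standard error 0.68, adjusted p = 0.789, both from limma).

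CYTB and ATP6 showed the same order of libraries at intermediate levels. CYTB, which encodes cytochrome b, the membrane core of complex III, measured 744, 886 and 194 TPM in the IP replicates, against 185, 399 and 307 TPM in the PP replicates. ATP6, a subunit of the proton channel of ATP synthase, measured 1091, 1344 and 410.3 TPM at the IP, against 398, 708 and 587 TPM at the PP. In both, PP replicate 2 was the highest PP value and exceeded IP replicate 3. The log2 fold changes were 0.83 for CYTB (standard error 0.57, adjusted p = 0.805) and 0.62 for ATP6 (standard error 0.45, adjusted p = 0.805, both from limma), and ATP6 had the smallest of the 10.

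**Figure D1:**
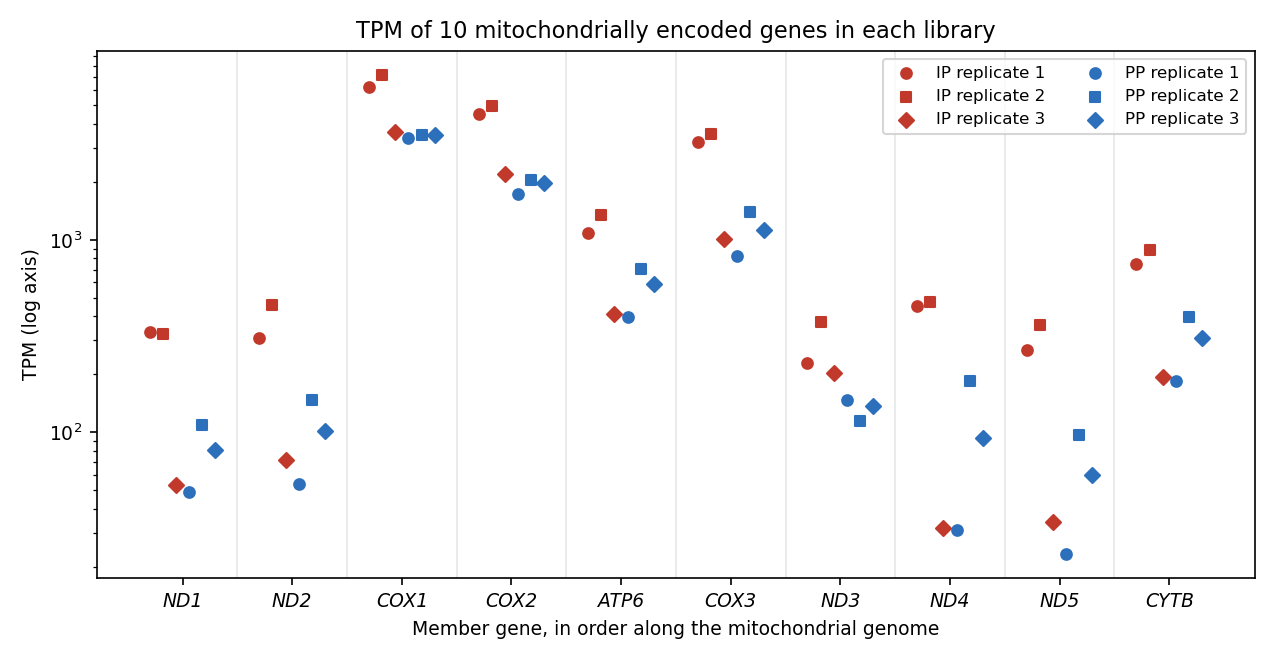
TPM on a log axis for each of the 10 genes in the order of their positions, with IP replicates (red) left of PP replicates (blue), 1 point per library. IP replicates 1 and 2 are the highest points for all 10 genes, and IP replicate 3 lies among the PP points for 7 of them and above the PP points for COX1, COX2 and ND3.

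Taken over the 10 genes, none passed an adjusted p under 0.05 in limma, a threshold that 16 of the 10896 tested loci passed (0.147%, and 0.101% counting those higher at the IP). An unadjusted p under 0.05 was reached by 3 of the 10, COX1, COX2 and ND3, all higher at the IP, where 5.86% of all tested loci reached it in that direction and 6.93% in either. The same 3 genes were those whose phases did not overlap, and 10.8% of all tested loci lay higher at the IP without overlap, with 2.02% lower. All 10 log2 fold changes were above 0, as were those of 82.6% of all loci, and 5 were at least 1, against 2.91% of all loci. The median of the 10 was 1.01, beside 0.25 for all loci tested. The 10 genes come from shared RNAs of 1 genome and are not independent of each other, so these counts do not add up as separate evidence. The 95% intervals included 0 for 7 of the 10 genes, and with 3 libraries each their width differed between genes. For ND4 the interval ran from -1.27 to 3.70, so that differences of several-fold could neither be shown nor set aside. For COX1 it was the narrowest, from 0.05 to 1.27.

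The values depended strongly on IP replicate 3. In each of the 10 genes both IP replicate 1 and IP replicate 2 were above the other 4 libraries, a pattern that 37.1% of all tested loci also had. IP replicate 3 was below the middle PP value in 7 of the 10 and ran from 1.03 to 1.46 times PP replicate 1. Without IP replicate 3 all 10 genes had an unadjusted p under 0.05, the median log2 fold change of the 10 was 1.58 beside 0.44 for all loci, and the lowest adjusted p was 0.0596, for COX2 (limma, with 2 IP libraries). Without IP replicate 1 or IP replicate 2, 1 of the 10 had an unadjusted p under 0.05 in each case, with medians of 0.79 and 0.70. When the libraries were instead rescaled by their median ratio, which moved the median of all loci to -0.01, the median of the 10 was 0.68 and none had an unadjusted p under 0.05 (adjusted p from 0.685 to 0.935, limma). For these refits the share of all loci with an unadjusted p under 0.05 is not given here. The counts of the 10 in them therefore cannot be set against the whole table. COX1, COX2 and ND3 still did not overlap after median-ratio scaling, where 6.6% of all loci lay higher at the IP without overlap.

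**Figure D2:**
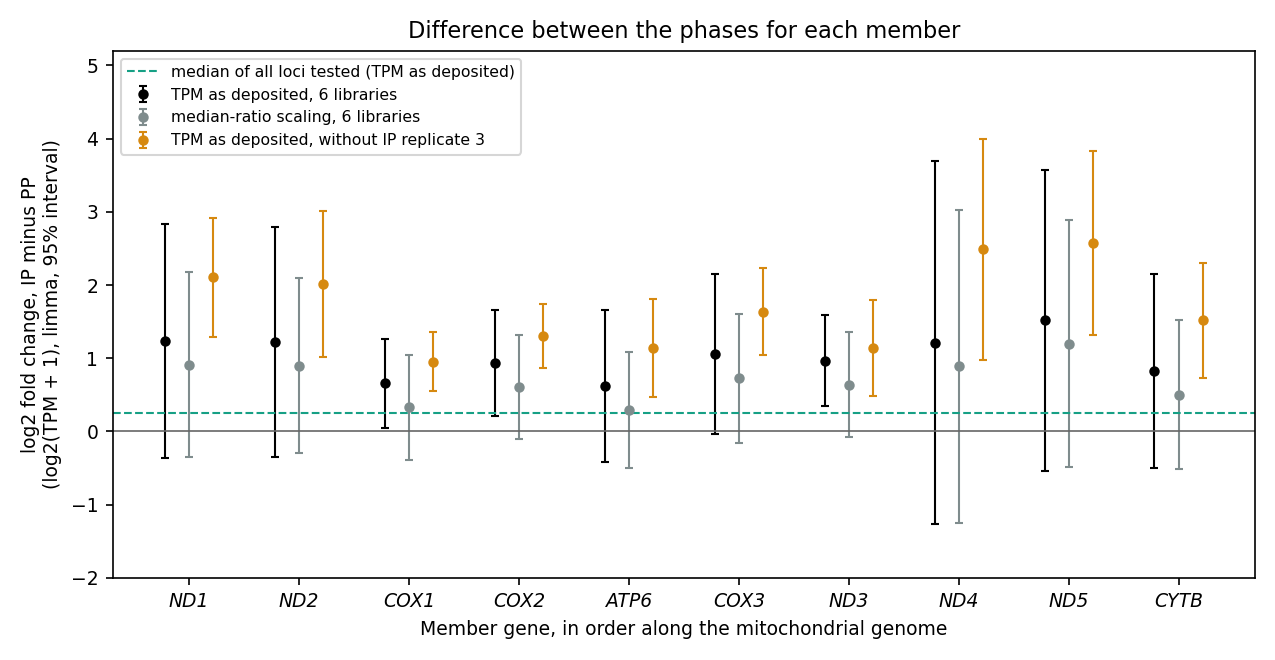
Log2 fold change, IP minus PP, with its 95% interval from limma for each gene in 3 fits (TPM as deposited, median-ratio scaling, and TPM without IP replicate 3). The dashed line is the median of all loci in the fit of TPM as deposited, 0.25. That median was -0.01 with median-ratio scaling and 0.44 without IP replicate 3, and these are not drawn. All points lie above 0, the intervals of ND4 and ND5 are the widest, and leaving out IP replicate 3 moves every gene upward.

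The summed TPM of the 10 genes was 17430.1, 19911 and 7859.8 in the IP replicates, against 6822 in PP replicate 1, 8727 in PP replicate 2 and 7978 in PP replicate 3. The sum was thus 1.74% and 1.99% of all TPM in IP replicates 1 and 2, and between 0.683% and 0.873% in the other 4 libraries, with IP replicate 3 at 0.786%. In the table as a whole, IP replicates 1 and 2 and PP replicate 2 also had the highest median TPM over all loci (4.69, 6.12 and 4.52), while IP replicate 3 had 3.03 and PP replicates 1 and 3 had 2.98 and 3.18. Assembled loci without annotation made up 38.2%, 37.0% and 48.1% of each IP replicate, against 51.6%, 43.6% and 50.3% of each PP replicate, and so were lowest where the 10 genes were highest. With the assembled loci left out and the rest rescaled, the median log2 fold change of the 10 was 0.82 beside 0.11 for all loci. As a share of annotated nuclear TPM, the sum of the 10 was 2.92%, 3.29% and 1.54% at the IP, against 1.43%, 1.58% and 1.64% at the PP.

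The make-up of this sum differed between libraries as well as its size. COX1 held 35.9%, 36.2% and 46.5% of it in the IP replicates, against 49.5%, 40.3% and 44.1% in the PP replicates. Together COX1, COX2 and COX3 held 78.8% to 87.3% at the IP and 79.9% to 87.0% at the PP. The share of COX1 was highest in the libraries with the smallest sums, PP replicate 1 and IP replicate 3. Summed, the 5 ND genes ran the other way, with 9.12%, 9.99% and 5.02% of the sum at the IP, against 4.45%, 7.46% and 5.92% at the PP. No gene had shares that separated the phases without overlap.

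**Figure D3:**
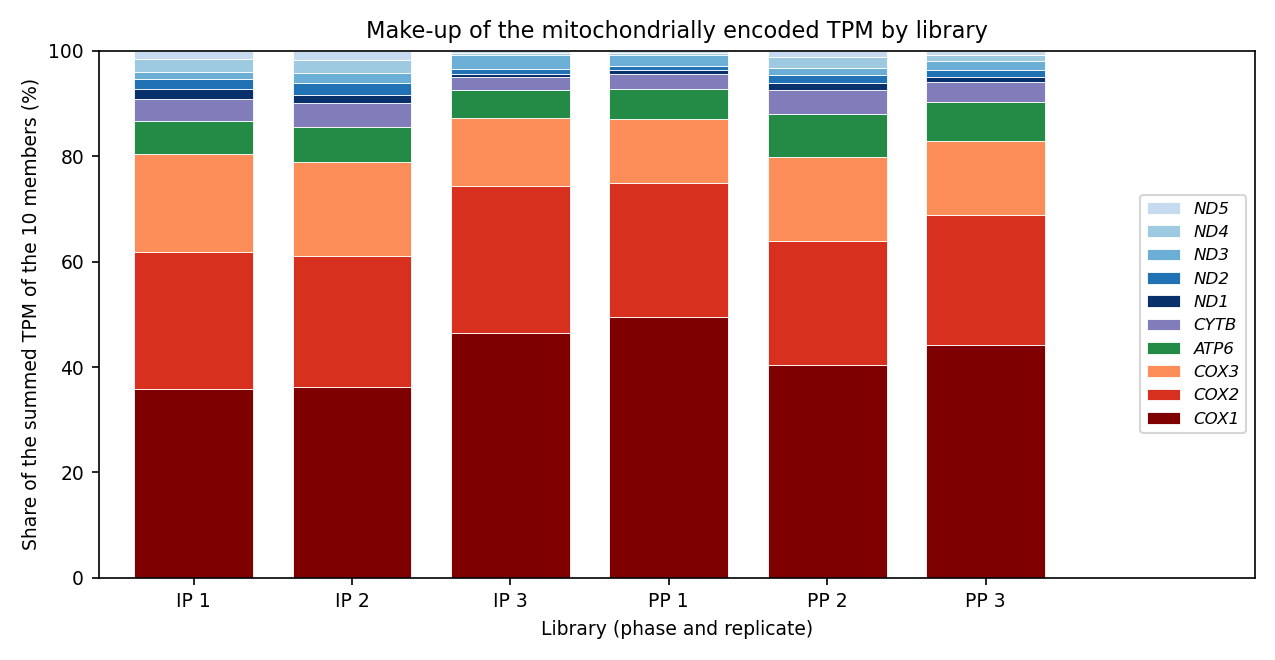
Share of each gene in the summed TPM of the 10 genes (percent, bars stacked to 100) for the 3 IP replicates and then the 3 PP replicates. COX1 takes 35.9% in IP replicate 1 and 49.5% in PP replicate 1, and the bands of ND1, ND2, ND4 and ND5, unlike that of ND3, are thinnest in IP replicate 3 and PP replicate 1.

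The ratio of COX1 to ND5 gives the size of this shift. It was 23.3, 20.1 and 107 in the IP replicates, against 145, 36.5 and 58.9 in the PP replicates. IP replicate 3 and PP replicate 1 therefore resembled each other more than their own phase. ND4 lies downstream of ND3, with ND4L between them. The ratio of ND3 to ND4 ran from 0.511 in IP replicate 1 to 6.44 in IP replicate 3, with 4.77, 0.619 and 1.46 in the PP replicates. By contrast, the ratio of COX1 to COX2 varied less, between 1.39 and 1.66 at the IP and between 1.71 and 1.95 at the PP, although the phases did not overlap. No test was made on this ratio, and the values of both genes are uncertain because of their nuclear copies. Along the genome, the ratio of the highest to the lowest library was 6.79 and 8.56 for ND1 and ND2, 2.13 and 2.86 for COX1 and COX2, 3.37 and 4.29 for ATP6 and COX3, 3.26 for ND3, 15.4 for ND4 and for ND5, and 4.78 for CYTB. Among 445 annotated nuclear loci whose mean TPM lay within the range of the 10 genes, the median of this ratio was 1.76, and 98.2% of these loci had a smaller ratio than ND4 or ND5. The share with a smaller ratio was 97.1% for ND2 and 95.5% for ND1, and ran from 64.5% for COX1 to 89.9% for CYTB over the other 6 genes.

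The 3 other protein genes of the mitochondrial genome were also highest in IP replicates 1 and 2, with none passing the test, and ATP8 and ND4L had their lowest value in IP replicate 3. ATP8, a small ATP synthase subunit read from the same message as ATP6 in mammals, measured 1388, 1535 and 203 TPM in the IP replicates, against 205, 506 and 427 TPM in the PP replicates (log2 fold change 1.09, adjusted p = 0.805 from limma). ND4L, which shares a message with ND4, measured 1124, 1354 and 178 TPM at the IP, against 185, 608 and 440 TPM at the PP (log2 fold change 0.82, adjusted p = 0.807 from limma). ND6, the complex I subunit encoded on the other strand, had a log2 fold change of 1.06 (adjusted p = 0.783 from limma). Genes that share a message did not keep a fixed ratio. ATP8 was 1.27, 1.14 and 0.494 times ATP6 at the IP, against 0.515, 0.714 and 0.728 times at the PP, and ND4L was 2.50, 2.86 and 5.64 times ND4 at the IP, against 5.99, 3.29 and 4.69 times at the PP. Nuclear stretches of at least 100 bases and at least 95% identity covered 96.1% of ATP8, while none was found for ATP6, ND4L or ND4. The values of ATP8 and its ratio to ATP6 are therefore uncertain as well. How the reads of these overlapping, short genes were divided was not tested.

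Nuclear-encoded subunits build the rest of the same complexes, and complex II entirely. Of 83 nuclear subunits listed for complexes I to V, 62 were tested, none passed the adjusted threshold in limma and the median log2 fold change was 0.20. An unadjusted p below 0.05 was found for 6 of them, each with its higher mean at the IP, where 5.86% of all tested loci had one in that direction and 1.06% in the other. In 12 of the 62 both IP replicates 1 and 2 were above the other 4 libraries, against all 10 of the mitochondrial genes and 37.1% of all tested loci. The 28 tested nuclear subunits of complex I had a median of 0.18, the 7 of complex III 0.38, the 12 of complex IV 0.06, the 11 of complex V 0.21, and the 4 subunits of complex II, which has no mitochondrial gene, 0.42. NDUFS6, an accessory subunit of complex I, measured 178, 230 and 237 TPM at the IP, against 155, 117 and 145 TPM at the PP (log2 fold change 0.62, adjusted p = 0.604 from limma). IP replicate 3 was thus its highest library, unlike any of the 10 mitochondrial genes. CYC1, the cytochrome c1 subunit of complex III, measured 102, 134 and 72.7 TPM at the IP, against 68.5, 46.7 and 61.5 TPM at the PP (log2 fold change 0.77, adjusted p = 0.636 from limma).

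For complex IV, the summed TPM of COX1, COX2 and COX3 was 14006, 15692 and 6861 in the IP replicates, against 5935, 6969 and 6612 in the PP replicates. The 13 nuclear subunits of that complex in the table summed to 13953, 13556 and 17946 TPM at the IP, against 17775, 12831 and 15894 TPM at the PP. The ratio of these 3 genes to the nuclear subunits was therefore 1.004, 1.16 and 0.382 at the IP, against 0.334, 0.543 and 0.416 at the PP. In complex I the summed 5 ND genes, without ND4L and ND6, over the nuclear subunits gave 0.297, 0.317 and 0.0503 at the IP, against 0.0423, 0.126 and 0.0730 at the PP. The phases overlapped in both complexes, and in complex III and complex V too. In each of the 4 complexes IP replicates 1 and 2 had the highest ratios and PP replicate 2 the next. On the mitochondrial side the sums hold the 10 genes only, so ND4L and ND6 are missing from complex I and ATP8 from complex V, and the ratios of these complexes would be higher with them. The nuclear sums are incomplete too, with 28 of 37 listed subunits of complex I in the table and 7 of 9 of complex III. For complex IV 13 of 15 were in the table and for complex V 11 of 18, and any missing subunit that is expressed would lower the ratios. The nuclear sums also weigh the most abundant subunits most, and subunits differed in their order of libraries. In complex IV, COX7C alone measured 6121, 5099 and 7588 TPM in the IP replicates, highest in IP replicate 3. COX5A of the same complex measured 214, 218 and 129 TPM in them, lowest in IP replicate 3. No test was made on the ratios.

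**Figure D4:**
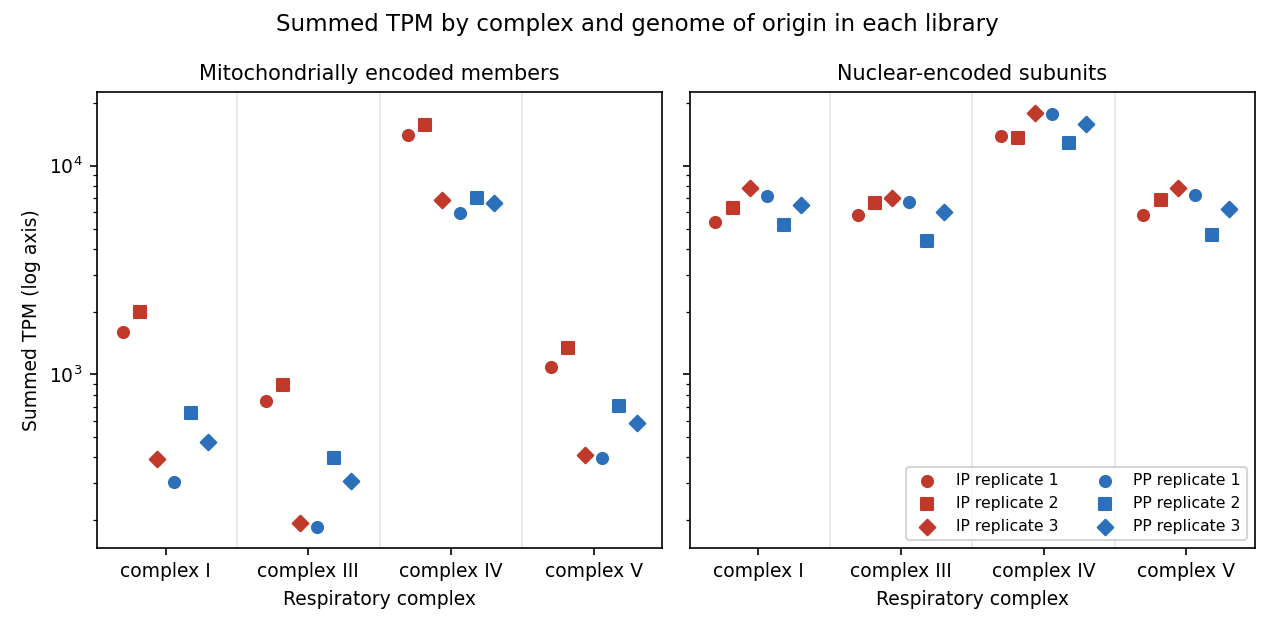
Summed TPM on a log axis for the 10 mitochondrially encoded genes, without ND4L, ND6 and ATP8 (left), and the nuclear-encoded subunits found in the table (right) of complexes I, III, IV and V, with IP replicates in red left of PP replicates in blue, 1 point per library. On the left IP replicates 1 and 2 stand above the other 4 libraries in every complex, and on the right IP replicate 3 is the highest point in every complex, with 17946 TPM in complex IV. The sums on the right weigh abundant subunits most, and not every subunit was highest in IP replicate 3.

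Other genes of the table ran nearly in step with the 10. By Pearson correlation of log2(TPM + 1) with the mean of the 10 genes over the 6 libraries, among the closest of 4541 genes with a symbol and a mean of at least 5 TPM were MACROH2A1, a histone variant (r = 0.993), ENTREP1 (0.993), ERGIC1, a protein of the early secretory pathway (0.993), and SSR2, a subunit of the translocon-associated complex of the endoplasmic reticulum (0.992). Such values are not rare in these libraries, as 329 of the 4541 genes (7.25%) had an r of at least 0.95 and the median r was 0.753. All points share their library, and IP replicates 1 and 2 lie far from the rest, so the coefficients rest on few libraries and are given as a description only.

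Checked against marker genes, the libraries held the genes of skeletal muscle. ACTA1, the actin of skeletal fibres, ranged from 4901 to 11431 TPM at the IP and from 3658 to 6269.6 TPM at the PP, and the 4 of 6 fibre markers found in the table summed to 16169 to 28587 TPM at the IP and 13407.5 to 20449.6 TPM at the PP. Slow-fibre markers, of which 5 of 7 were found, summed to 4501 to 9269 TPM at the IP and 4335 to 12234 TPM at the PP, and 4 of 8 fast-fibre markers to 26931 to 40620.0 TPM at the IP and 26485 to 42078 TPM at the PP. For other cell types, 5 of 6 adipocyte markers summed to 319 to 375 TPM at the IP and 278 to 589 TPM at the PP, 4 of 5 endothelial markers to 28.4 to 60.1 TPM at the IP and 26.6 to 32.0 TPM at the PP, and the 5 macrophage markers to 10.6 to 17.9 TPM at the IP and 16.8 to 18.5 TPM at the PP. The 5 fibroblast markers summed to 236 to 409.6 TPM at the IP and 194 to 305 TPM at the PP, and 2 of 4 red blood cell markers to 199 to 323 TPM at the IP and 102 to 271 TPM at the PP. None of these sums separated the phases, every marker found passed the filter on low values, and the part of other cells in the values of the 10 genes was not tested. The collagen genes COL1A1, COL3A1 and COL1A2 of the fibroblast list did lie higher in all IP than in all PP replicates, with log2 fold changes of 1.48, 1.36 and 0.88 and adjusted p of 0.391, 0.488 and 0.667 (limma), where 10.8% of all tested loci lay higher at the IP without overlap. The other 2 fibroblast markers overlapped between the phases, with log2 fold changes of 0.33 for PDGFRA and -0.28 for DCN. CIDEC, a lipid droplet protein of the adipocyte list, measured 14.5, 12.1 and 11.7 TPM at the IP, against 5.56, 2.99 and 3.90 TPM at the PP (log2 fold change 1.44, adjusted p = 0.175 from limma), while the other 4 adipocyte markers overlapped between the phases.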

How the data were processed

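RNA of longissimus dorsi was sequenced from 3 IP and 3 PP pigs. The authors selected poly(A) RNA, aligned filtered reads, assembled transcripts and deposited gene expression as TPM, 1 column per library. TopHat and Sscrofa11.1 are given in the submitters' processing notes, and the methods name an earlier build. TPM hold no read numbers, so depth per locus is unknown and precision is given by the spread between libraries. From the deposited values, log2(TPM + 1) of the 10896 loci with at least 1 TPM in at least 3 libraries was fitted with limma 3.58.1 in R 4.3.3 (eBayes with trend, 2-sided, no block), with Benjamini-Hochberg adjustment over all loci and a threshold of 0.05. The steps were tested on simulated data. Symbols came from Ensembl identifiers (9764 loci), positions and sequences from RefSeq Sscrofa11.1, and nuclear copies from blastn 2.17.0. The genes named were the 10, the other mitochondrial protein genes, up to 3 genes per list with the smallest p, and the 5 genes most like the 10, of which 1 is not reported here; ACTA1 is named as a tissue check, and TFAM, PDGFRA and DCN, outside this rule, were added after their values were seen. The genes and lists were chosen with earlier results of these data known. The alternatives changed the pseudocount, the filter, the scaling or the variance model, added a replicate block, or left out a library in turn.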

Additional observations from a re-analysis of the deposited data

How the results depend on the processing

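Over 17 alternatives, all 170 log2 fold changes of the 10 genes were above 0 and none passed an adjusted p under 0.05 in limma. The number of the 10 with an unadjusted p under 0.05, 3 as reported, was 0 with median-ratio scaling and ran from 1 to 10 when 1 library was left out, the 10 coming without IP replicate 3. The share of all loci reaching that p in the alternatives is not given here, so these counts are not particular to the 10 genes. The median log2 fold change of all loci moved too, to -0.01 with median-ratio scaling and to 0.08 to 0.44 when 1 library was left out. The number of loci passing over the whole table, 16 as reported, was 4 with a pseudocount of 5, 6 with a filter of at least 5 TPM in 3 libraries, 3 with the replicate block, and 2 to 22 when 1 library was left out. Deviations from the phase means correlated at -0.528, 0.2 and 0.221 between libraries of the same number. Between libraries of different number the correlations ran from -0.617 to 0.637. With 3 libraries per phase the deviations sum to 0 within each phase, so these values cannot show whether the numbers pair the pigs. In limma with the replicate block, 3 of the 10 genes reached the unadjusted threshold, COX2, ND3 and COX3, the last in place of COX1. Both COX3 and COX1 lay close to that threshold. The widest range among the 10 was that of ND4, 0.53 to 2.49, and the narrowest that of ND3, 0.64 to 1.14. Reads behind each value are unknown, and poly(A) selection, reads shared with nuclear copies and overlapping neighbours limit how the levels of these genes compare with one another.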

Other observations

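Nuclear genes that maintain, copy and read mitochondrial DNA were set as lists with earlier results known, and none of their members passed an adjusted p under 0.05 in limma. Of 9 tested genes of mitochondrial transcription, none had an unadjusted p under 0.05 and the median log2 fold change was 0.12. TFAM, which packages mitochondrial DNA and starts its transcription, measured 11.96, 19.2 and 14.3 TPM in the IP replicates, against 15.7, 14.8 and 13.4 TPM in the PP replicates, so all PP values lay within the range of the IP values. TFAM was named after its values were seen. The 21 tested genes of mitochondrial RNA processing and stability had a median of 0.25, the same as all loci tested, and the 12 translation factors 0.31. Of 36 assembly factors of the complexes, 1 reached an unadjusted p under 0.05 in each direction, as did 5.86% of all tested loci higher at the IP and 1.06% lower. ECSIT, a complex I assembly factor, measured 38.2, 55.5 and 33.5 TPM at the IP, against 29.4, 21.8 and 27.0 TPM at the PP, and NDUFAF8, another, measured 87.1, 77.6 and 100.01 TPM at the IP, against 118, 135 and 131 TPM at the PP.

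Among 8 tested regulators of mitochondrial biogenesis the median log2 fold change was 0.42 and none had an unadjusted p under 0.05. PPARGC1A, a coactivator that raises mitochondrial gene expression, measured 5.63, 15.7 and 3.69 TPM in the IP replicates, against 2.49, 4.57 and 3.08 TPM in the PP replicates. Like 7 of the 10 mitochondrial genes, it was highest in IP replicates 1 and 2 and had its IP replicate 3 within the PP values. IP replicates 1 and 2 were above the other 4 libraries in 37.1% of all tested loci, so this order is not particular to PPARGC1A. The 7 tested genes of mitochondrial DNA replication had a median of 0.29. POLG, the mitochondrial DNA polymerase, measured 12.8, 12.4 and 6.64 TPM at the IP, against 6.14, 9.40 and 6.09 TPM at the PP. Of the 12 tested markers of mitochondrial content none had an unadjusted p under 0.05, with a median of 0.27.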
